A study of Homo sapiens with 22 samples.

Results

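The BCL2 family of apoptosis regulators was followed in human B-cell lymphoma lines treated with 5-aza-2'-deoxycytidine (5-aza-dC) and trichostatin A (TSA). Members were all probe sets whose platform gene symbol was BCL2, BCL2L1, MCL1, BCL2A1, BAX, BAK1, BID, BCL2L11, BBC3 or PMAIP1. This gave 22 of the 22283 probe sets on the array, for 9 of the 10 genes and of the 11963 genes that the array could name. The single probe set that names BBC3 is annotated with several genes, so BBC3 was not analysed here. Of the 22 probe sets, 13 read pro-survival genes and 9 read pro-death genes. The arrays were Affymetrix HG-U133A, 22 in number, and a probe set is a group of short oligonucleotides for one transcript. The 11 treated arrays came from 3 lines of Burkitt lymphoma (Daudi, Namalwa, Raji) and 3 lines of diffuse large B-cell lymphoma, DLBCL (SU-DHL4, SU-DHL6, HT). Treated cells received 5-aza-dC, an inhibitor of DNA methyltransferases, for 6 days and 625 nM TSA, an inhibitor of histone deacetylases, for the last 24 h. The sample titles give 5 µM 5-aza-dC and the protocol gives 3 µM, so the dose is uncertain. The 11 untreated arrays came from the same 6 lines without either drug. Each line and treatment had 2 arrays, except HT with 1, and both drugs were always given together.

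The BCL2 family decides whether the outer mitochondrial membrane is kept intact or opened to release cytochrome c. BAX and BAK1 are the effectors that form pores, and BCL2, BCL2L1 (BCL-xL), MCL1 and BCL2A1 (A1) restrain them. The BH3-only members BID, BCL2L11 (BIM) and PMAIP1 (NOXA) bind the restraining proteins, and some of them also activate the effectors directly. In B-cell lymphoma the family is best known through the translocation that joins BCL2 to the immunoglobulin heavy chain locus, which SU-DHL4 and SU-DHL6 carry.

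Values are log2 RMA expression, and a difference is treated minus untreated on that scale, so that a difference of 1 is a doubling. A level is comparable between samples of one probe set and not between probe sets, and the suffixes _s_at and _x_at mark probe sets that can match several transcripts. On arrays of bulk RNA, fewer cells with a transcript and less transcript per cell cannot be told apart. Array medians lay between 6.82 and 6.91 on treated arrays and between 6.72 and 6.79 on untreated arrays. The interquartile range was 1.96 to 2.40 on treated arrays, lowest in SU-DHL4 and on the second treated SU-DHL6 array, against 2.31 to 2.59 on untreated arrays. On that SU-DHL6 array the 3' control probe sets for ACTB exceeded the 5' ones by 2.08, against at most 0.07 on untreated arrays. The same excess was 0.47 on the first treated SU-DHL6 array and 0.28 on the second treated SU-DHL4 array, the 2 other treated arrays above that untreated maximum. Values with SU-DHL4 and the second treated array of SU-DHL6 left out are given below for each gene, though not for every probe set. The treated Burkitt arrays came from an earlier publication, per the series' design text, so in those 3 lines the treatment and the earlier data set cannot be told apart. Of 7 B-cell markers, 6 were measured, and all 6 were above the 25th percentile on every untreated array. In treated cells 5 of the 6 were lower, and their mean level was 8.34 to 10.13 on treated arrays, against 10.66 to 11.10 on untreated arrays. T-cell markers averaged 6.99 to 7.79 on treated and 6.81 to 6.93 on untreated arrays, with 2 of 5 higher. Myeloid markers averaged 5.43 to 5.91 on treated and 5.22 to 5.75 on untreated arrays, with 1 of 5 higher, CSF1R. The 4 NK cell, 2 erythroid and 4 stromal markers measured did not pass in limma. The part of these shifts in the results below was not tested.

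Over the 6 lines, limma called 1 of the 22 probe sets higher and 4 lower in treated cells at an adjusted p under 0.05, and 17 did not pass. Among all 22215 probe sets tested, 15.6% were called higher and 16.7% lower, so that 48.3% of all calls were higher. After centring each array on its median that share was 31.8%, with 1995 of the 22215 probe sets called higher and 4284 lower. The members then had 1 higher and 6 lower. All 4 that fell were pro-death probe sets, both of BAX and both of BID, and the 1 that rose was a probe set of BCL2. Of the 13 pro-survival probe sets 12 did not pass, and of the 9 pro-death probe sets 5 did not pass. At an unadjusted p under 0.05 the pro-survival probe sets numbered 1 higher and 3 lower, and the pro-death ones 0 higher and 5 lower, where 26.1% of all probe sets were higher and 20.3% lower at that threshold. Of the leading (brightest) probe sets of the 9 genes, 0 were higher and 2 lower in the same fit, where 18.4% and 17.9% of all genes were called. With p-values adjusted over 1 probe set per gene instead of over all probe sets, 3 of the 9 were lower, with BCL2L1 now among them (adjusted p = 0.0444). The share of members called lower is close to that of the array as a whole. The plot of all 22 probe sets shows BAX and BID left of 0 in every line, while BCL2A1, PMAIP1 and MCL1 spread to both sides.

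**Figure D1:**
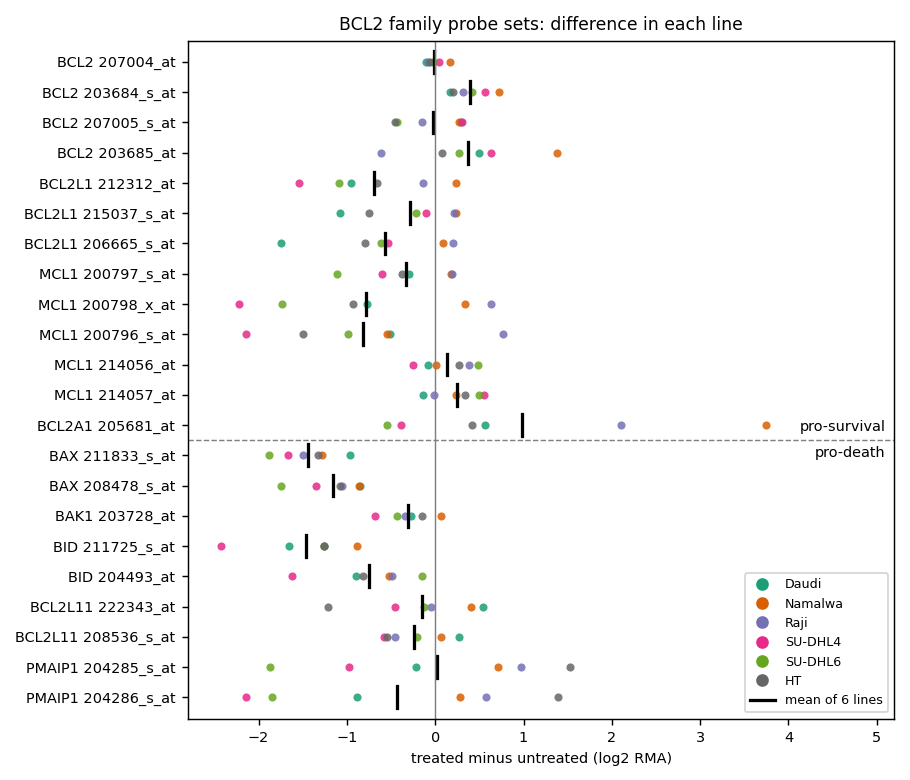
Difference between treated and untreated cells (log2 RMA, horizontal axis) of each BCL2 family probe set, with 1 point per line and a black bar at the mean of the 6 lines. Pro-survival probe sets stand above the dashed line and pro-death ones below it; both BAX probe sets and both BID probe sets lie below 0 in all 6 lines, and BCL2A1 reaches 3.74 in Namalwa.

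Among the effectors, BAX was lower in treated cells of every line. Its leading probe set, 211833_s_at, ranged over 5.89 to 7.20 (median 6.63) on the 11 treated arrays, against 7.42 to 8.75 (median 7.89) on the 11 untreated arrays. Every treated array thus lay below every untreated one. The mean over lines was 6.57 ± 0.24 in treated cells and 8.01 ± 0.35 in untreated cells (SD, n = 6 lines), a difference of -1.44 ± 0.32 or 2.70-fold. Its adjusted p in limma was 0.000481, and the 95% interval of the difference was -1.72 to -1.15. The second BAX probe set, 208478_s_at, ranged over 5.77 to 6.71 on treated arrays, against 6.72 to 7.80 on untreated arrays. These ranges did not overlap either, although their ends nearly met. Its difference was -1.16 ± 0.34, 2.23-fold, with an adjusted p of 0.00105 in limma. A treated range wholly below the untreated one was found for 2 of the 22 members, both of them BAX, and for 3.59% of all probe sets. A treated range wholly above it was found for 0 members and 1.86% of all.

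BAX was lower in treated cells of each kind of lymphoma, though in the 3 Burkitt lines the treatment and the earlier data set cannot be told apart. In limma on the 3 Burkitt lines alone the leading probe set differed by -1.25 (adjusted p = 0.0249), and on the 3 DLBCL lines alone by -1.62 (adjusted p = 0.0235). Line by line the difference was -0.97 in Daudi, -1.28 in Namalwa, -1.49 in Raji, -1.66 in SU-DHL4, -1.88 in SU-DHL6 and -1.33 in HT. It was called in 5 of the 6 lines, and in HT, with single arrays, the adjusted p was 0.0825. The call in Daudi was lost without the second treated array (adjusted p = 0.228) or the first untreated array (adjusted p = 0.215) of that line, and in Namalwa without the first untreated array (adjusted p = 0.0517). An F-test of whether these differences vary between the lines had an adjusted p of 0.459. With SU-DHL4 and the second treated array of SU-DHL6 left out the difference was -1.37 (adjusted p = 0.00187 in limma). Over all 37 alternatives tried its adjusted p lay between 7.50e-08 and 0.0249, so the call held under each of them.

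The BAX promoter is shown because the drugs act on DNA methylation and histone acetylation and the treated mean of BAX was the lower one in every line. The window, chr19:48954625-48954924 on the plus strand of GRCh38.p14, runs from 250 bases before to 50 bases after the RefSeq start, with CG pairs, the sites of DNA methylation, in capitals.
BAX: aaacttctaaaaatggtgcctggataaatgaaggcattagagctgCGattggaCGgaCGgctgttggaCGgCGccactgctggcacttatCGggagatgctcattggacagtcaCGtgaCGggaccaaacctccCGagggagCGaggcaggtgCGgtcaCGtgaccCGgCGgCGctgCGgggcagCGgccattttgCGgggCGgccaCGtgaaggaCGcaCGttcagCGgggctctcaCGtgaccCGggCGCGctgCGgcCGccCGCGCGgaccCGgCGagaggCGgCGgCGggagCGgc
It holds 38 CG pairs, and 90.1% of the 35116 RefSeq windows of this length hold fewer. The E-box CACGTG, a palindrome that MYC and its partner MAX can bind, contains a CG pair and occurs 4 times. Of all windows 7.3% hold this motif at least once and 0.0142% hold it as often as BAX or more. The motif was chosen after the sequence had been read, and no methylation or binding was measured on these arrays.

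BAK1, the other effector, has 1 probe set, and its values did not pass. Its treated arrays stood at 7.97 and 7.65 in Daudi, 8.18 and 7.58 in Namalwa, 7.84 and 8.04 in Raji, 7.34 and 7.59 in SU-DHL4, 7.95 and 8.27 in SU-DHL6 and 8.003 in HT. The untreated arrays stood at 8.23 and 7.95 in Daudi, 7.75 and 7.87 in Namalwa, 8.30 and 8.26 in Raji, 8.28 and 8.01 in SU-DHL4, 8.38 and 8.71 in SU-DHL6 and 8.16 in HT. Treated and untreated ranges overlapped, and the treated mean was the lower one in 5 of 6 lines. The difference over lines was -0.30 ± 0.25, with a 95% interval of -0.55 to -0.06 and an adjusted p of 0.0624 in limma. With SU-DHL4 and the second treated array of SU-DHL6 left out it was -0.26. In SU-DHL4 it was called at -0.68 (adjusted p = 0.0135). That call was lost without the first treated array of the line (adjusted p = 0.0917) and without its first untreated array (adjusted p = 0.0981). The BAK1 promoter window holds 7 CG pairs, and 36.8% of windows hold fewer.

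BID, the BH3-only protein that caspase-8 cleaves after death receptor signalling, had the lower mean in treated cells of all 6 lines on both probe sets. The leading one, 211725_s_at, ranged over 6.84 to 8.39 (median 7.12) on treated arrays, against 7.71 to 9.49 (median 8.96) on untreated arrays. The ranges overlapped across lines, because untreated SU-DHL6 reached down to 7.71 and treated Namalwa up to 8.39, but within each line the treated arrays were the lower ones. The mean was 7.42 ± 0.53 in treated cells and 8.88 ± 0.40 in untreated cells (SD, n = 6 lines). The difference of -1.46 ± 0.53, or 2.75-fold, had an adjusted p of 0.00169 in limma and a 95% interval of -1.89 to -1.02. The largest difference was in SU-DHL4, where the treated arrays had 7.07 and 6.84 and the untreated arrays 9.26 and 9.49, 5.36-fold apart (adjusted p = 5.57e-05). The difference was also called in Daudi, at -1.66 (adjusted p = 0.00275), in Raji, at -1.26 (adjusted p = 0.0185), and in SU-DHL6, at -1.26 (adjusted p = 0.0102), but not in Namalwa, at -0.89 (adjusted p = 0.0640), or in HT, at -1.26 (adjusted p = 0.148). The calls in Daudi and SU-DHL4 held without any 1 array. The call in Raji was lost without 3 of its own arrays taken 1 at a time, at -0.83 without the first treated one (adjusted p = 0.239), and that in SU-DHL6 without the second treated array (adjusted p = 0.0614) or the first untreated array, at -0.77 (adjusted p = 0.124). The second probe set, 204493_at, differed by -0.75 ± 0.50 (adjusted p = 0.0173 in limma). Within lines it was called in Daudi and SU-DHL4 alone, and the Daudi call held in 19 of 22 fits without 1 array. In SU-DHL6 it differed by -0.15, with 5.86 and 6.10 treated, against 6.18 and 6.07 untreated. It kept its direction but not its call on the 3 Burkitt lines alone (adjusted p = 0.0549) and on the 3 DLBCL lines alone (adjusted p = 0.117), the highest of its alternatives, which began at 0.000356. The leading probe set passed on both, at -1.27 (adjusted p = 0.0374) and -1.65 (adjusted p = 0.0382), and with SU-DHL4 and the second treated array of SU-DHL6 left out at -1.26 (adjusted p = 0.00199). It passed in all 37 alternatives, with adjusted p between 1.35e-06 and 0.0382. RefSeq gives BID 5 starts with a window, which hold 6 to 37 CG pairs. The E-box occurs once in each of 2 of them.

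**Figure D2:**
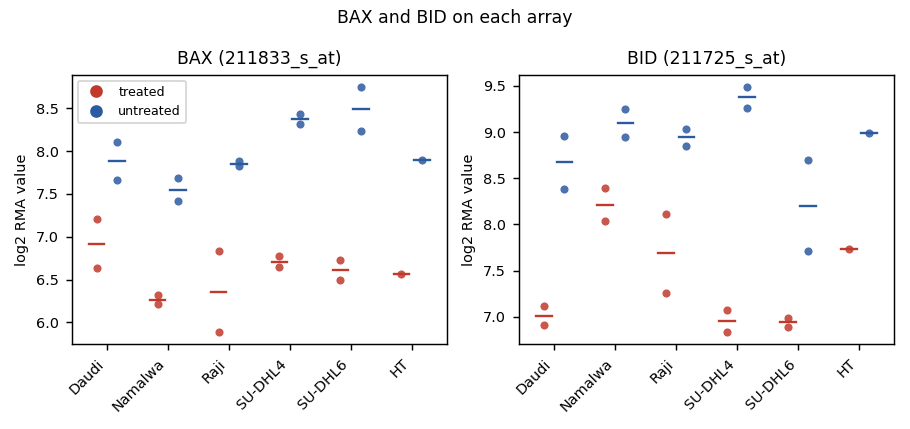
Log2 RMA value (vertical axis) of the leading BAX and BID probe sets on each of the 22 arrays by line, treated in red left of untreated in blue, with a bar at the mean of the arrays. In each of the 6 lines the red points lie below the blue ones in both panels, with treated BAX between 5.89 and 7.20 and treated BID between 6.84 and 8.39.

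PMAIP1, which binds MCL1 and BCL2A1, had a mean difference near 0, and the lines moved apart. On its leading probe set, 204285_s_at, the 2 treated arrays had 8.42 and 7.33 in SU-DHL6, against 9.10 and 10.39 on the untreated arrays. In SU-DHL4 the treated arrays had 9.22 and 8.90, against 9.83 and 10.26 untreated. These treated values lay below the untreated ones, whereas the other DLBCL line went the other way. HT had 9.22 treated and 7.69 untreated. Raji had 11.68 and 11.27 treated, against 10.21 and 10.79 untreated, and Namalwa had 11.06 and 11.68 treated, against 10.97 and 10.36 untreated. Daudi had 10.67 and 10.86 treated, against 10.96 and 11.01 untreated. By the mean of the arrays, PMAIP1 was thus highest in the 3 Burkitt lines with and without the drugs.

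Over the 6 lines PMAIP1 differed by 0.02 ± 1.29 (adjusted p = 0.969 in limma; -0.07 with each array centred on its median), with a 95% interval of -0.98 to 1.03. With SU-DHL4 and the second treated array of SU-DHL6 left out it was 0.33 (adjusted p = 0.586). Whether the difference varies between lines was tested directly with an F-test on the 22 arrays, added after the data had been seen, and the adjusted p for this probe set was 0.0149. Within lines the call was made in SU-DHL6 alone, at -1.87 or 3.66-fold (adjusted p = 0.00533). It was lost without the second treated array of that line, the one with the high ACTB ratio, at -1.33 (adjusted p = 0.0733), and without its second untreated array at -1.23 (adjusted p = 0.0627). The second probe set, 204286_s_at, was called in SU-DHL4 at -2.14 or 4.42-fold (adjusted p = 0.0101), where the treated arrays had 6.26 and 6.15 and the untreated arrays 8.37 and 8.33. Without the second treated SU-DHL4 array that adjusted p was 0.0527. The same probe set was called in SU-DHL6 at -1.84 (adjusted p = 0.0408), and that call held in 12 of 22 fits without 1 array, with an adjusted p of up to 0.335 without the second untreated array of the line, where the difference was -0.92. Its mean difference across lines was -0.44 ± 1.41 (adjusted p = 0.474 in limma), and -0.04 with those arrays left out. The PMAIP1 window holds 42 CG pairs, more than in 94.2% of windows.

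BCL2L11 showed no common direction. Its leading probe set, 222343_at, was higher on both treated arrays of Daudi, with 6.36 and 6.49 against 6.04 and 5.72 on the untreated arrays, and of Namalwa, with 6.16 and 6.40 against 5.95 and 5.79. In HT it had 6.06 treated and 7.27 untreated, a difference of -1.21 (adjusted p = 0.193). The untreated Raji arrays had 6.65 and 8.12, 1.46 apart, which is more than the difference between treatments in any line. Over the 6 lines the difference was -0.15 ± 0.64 (adjusted p = 0.605 in limma), with a 95% interval of -0.66 to 0.36. With SU-DHL4 and the second treated array of SU-DHL6 left out it was -0.07. The second probe set, 208536_s_at, was below the 25th percentile of the array on 10 of 11 treated and 9 of 11 untreated arrays, so its difference of -0.24 ± 0.35 rests on dim values.

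BCL2A1, an NF-kB target that restrains apoptosis in activated B cells, had the widest response of all members. In Namalwa its single probe set had 9.86 and 10.66 on the treated arrays, against 6.68 and 6.35 on the untreated arrays, a 13.4-fold rise (adjusted p = 3.98e-06 in limma). In Raji it had 10.62 and 10.11 treated, against 8.73 and 7.79 untreated, a 4.30-fold rise (adjusted p = 0.000511). Both calls held without any 1 array. In the remaining 4 lines no call was made and the values were near the dim end of the array, where 7 of the 11 treated and 7 of the 11 untreated arrays lay below the 25th percentile. Daudi, the third Burkitt line, had 5.33 and 5.45 treated, against 4.84 and 4.80 untreated, a difference of 0.57 (adjusted p = 0.224). SU-DHL4 had 5.00 and 4.97 treated, against 5.51 and 5.24 untreated, and SU-DHL6 had 4.66 and 4.93 treated, against 5.33 and 5.37 untreated. HT had 5.06 treated and 4.65 untreated. The rise was thus called in the 2 lines in which the gene was already highest before treatment.

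Over the 6 lines BCL2A1 did not pass, with 6.81 ± 2.72 in treated cells and 5.83 ± 1.36 in untreated cells (SD, n = 6 lines) and a difference of 0.98 ± 1.65 (adjusted p = 0.192 in limma). With SU-DHL4 and the second treated array of SU-DHL6 left out the difference was 1.23. The F-test between lines had an adjusted p of 0.000166, and it passed under all 26 alternatives tried, with adjusted p between 5.17e-05 and 0.00457. The 3 Burkitt lines averaged a difference of 2.14 and the 3 DLBCL lines -0.18. The gap of 2.31 ± 0.77 (SE) between these had an unadjusted p of 0.0223 and an adjusted p of 0.417 in limma, with Daudi between the other Burkitt lines and the DLBCL lines.

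The BCL2A1 promoter is shown as the contrast to that of BAX, since it is poor in CG pairs. The window is chr15:79971147-79971446 on the minus strand of GRCh38.p14, from 250 bases before to 50 bases after the RefSeq start, with CG pairs in capitals.
BCL2A1: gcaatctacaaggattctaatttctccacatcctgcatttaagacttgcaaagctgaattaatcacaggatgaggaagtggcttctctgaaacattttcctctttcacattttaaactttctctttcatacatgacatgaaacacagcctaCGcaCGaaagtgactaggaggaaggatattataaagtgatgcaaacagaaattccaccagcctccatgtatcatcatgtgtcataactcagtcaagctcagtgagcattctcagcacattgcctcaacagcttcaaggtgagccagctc
It holds 2 CG pairs, and 11.0% of windows hold fewer, where the median over all windows is 14. The windows of 8 of the 9 measured members were available. No E-box CACGTG lies in this window, nor in those of BCL2, BCL2L1, BAK1, BCL2L11 and PMAIP1.

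**Figure D3:**
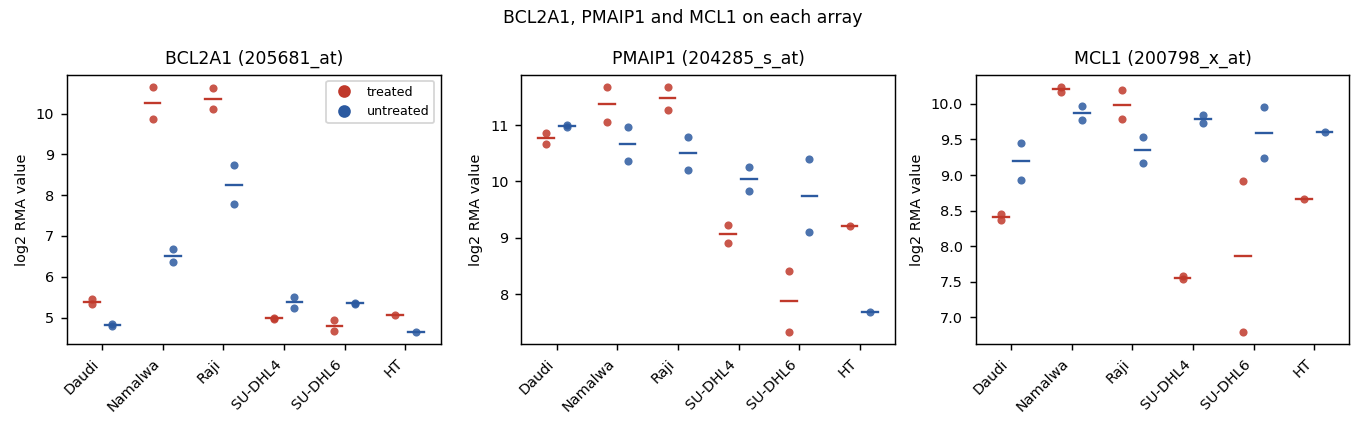
Log2 RMA value (vertical axis) of the leading BCL2A1 and PMAIP1 probe sets and of MCL1 200798_x_at on each of the 22 arrays by line. Treated arrays are in red left of untreated in blue, with a bar at the mean of the arrays. For MCL1 the probe set shown is not the leading one but the one whose differences varied most over the lines. The leading one, 200797_s_at, differed by -0.60 in SU-DHL4, not called (adjusted p = 0.0731 in limma). In SU-DHL6 it was called at -1.11 (adjusted p = 0.00883). BCL2A1 rises in Namalwa and Raji, while treated PMAIP1 in SU-DHL6 lies at 8.42 and 7.33 and treated MCL1 in SU-DHL4 at 7.54 and 7.58, below the untreated arrays of the same line.

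MCL1, a short-lived restraining protein on which many B-cell tumours depend, was read by 5 probe sets that did not move alike. Its leading probe set, 200797_s_at, had 9.88 and 9.76 on the treated SU-DHL4 arrays, against 10.48 and 10.36 on the untreated ones. In SU-DHL6 it had 10.00 and 9.69 treated, against 10.84 and 11.06 untreated, and this difference of -1.11 was called there (adjusted p = 0.00883). It was lost without the second treated array (adjusted p = 0.0767) or the second untreated array (adjusted p = 0.0581) of that line. The probe set 200798_x_at moved furthest in SU-DHL4, with 7.54 and 7.58 treated, against 9.84 and 9.73 untreated, a 4.68-fold fall (adjusted p = 0.00147). There 200796_s_at fell 4.40-fold (adjusted p = 0.0048) and 214057_at rose by 0.55 (adjusted p = 0.00181). In SU-DHL6 214057_at was higher by 0.49 (adjusted p = 0.00885), a call lost without the first untreated array of the line (adjusted p = 0.0687). Probe sets of MCL1 were thus called in opposite directions in SU-DHL4 and in SU-DHL6. The rising one, 214057_at, read low, averaging 5.68 in untreated SU-DHL4 and 5.93 in untreated SU-DHL6. The 25th percentile of those untreated arrays was 5.55 to 5.64. The brighter 200797_s_at, 200798_x_at and 200796_s_at had the lower mean in treated cells of SU-DHL4, SU-DHL6, HT and also Daudi, a Burkitt line. In Daudi they differed by -0.30, -0.78 and -0.51, none of them called. In Namalwa 200796_s_at was lower as well, at -0.54, not called. In SU-DHL6 200798_x_at was called at -1.73 (adjusted p = 0.0152), and without the second treated array, which had 6.80 where the first had 8.92, the difference was -0.67 (adjusted p = 0.140). It was also lost without the first untreated array, at -1.38 (adjusted p = 0.123). In Raji the same probe set had 9.78 and 10.20 treated, against 9.54 and 9.17 untreated, and in Namalwa 10.17 and 10.24 treated, against 9.97 and 9.77 untreated.

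Over all 6 lines together the 5 MCL1 probe sets did not pass in limma. The leading one differed by -0.34 ± 0.49 (adjusted p = 0.166), 200798_x_at by -0.78 ± 1.12 (adjusted p = 0.139) and 200796_s_at by -0.82 ± 0.99 (adjusted p = 0.0959). The probe sets 214056_at and 214057_at differed by 0.14 ± 0.29 and 0.24 ± 0.28. On the 3 DLBCL lines alone 200798_x_at passed at -1.63 (adjusted p = 0.0379) and 200796_s_at at -1.54 (adjusted p = 0.0367). With SU-DHL4 and the second treated array of SU-DHL6 left out these probe sets differed over lines by -0.28 (adjusted p = 0.467) and -0.42 (adjusted p = 0.334). The leading probe set changed sign with scaling, at 0.11 after cyclic loess and 0.06 after quantile normalization. The probe sets also differed in sign among themselves. The rises were on 214056_at and 214057_at, the dimmest of the 5 by mean value. No direction is given for MCL1 as a whole.

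BCL2L1, the gene of BCL-xL, lay just outside the threshold. Its leading probe set, 212312_at, had 5.69 and 5.47 on treated SU-DHL4 arrays, against 7.40 and 6.83 untreated, and 6.60 and 6.43 on treated SU-DHL6 arrays, against 7.79 and 7.43 untreated. Daudi had 7.47 and 6.94 treated, against 8.23 and 8.10 untreated, and HT had 6.58 treated and 7.23 untreated. In these 4 lines the treated arrays were the lower ones. Raji had 7.53 and 7.88 treated, against 7.88 and 7.79 untreated, and Namalwa had 8.14 and 7.18 treated, against 7.31 and 7.53 untreated. In Raji and Namalwa the 2 treatments overlapped. The mean was 6.87 ± 0.81 in treated cells and 7.56 ± 0.39 in untreated cells (SD, n = 6 lines), and the difference of -0.69 ± 0.65 had an adjusted p of 0.0501 in limma. It passed in 19 of the 37 alternatives tried, with adjusted p between 0.00376 and 0.530, and at -0.50 it did not pass with SU-DHL4 and the second treated array of SU-DHL6 left out (adjusted p = 0.120). In SU-DHL4 the 2.90-fold fall was called (adjusted p = 0.000614) and held without any 1 array. In Daudi it was called at -0.96 (adjusted p = 0.0312) but not without the second treated array, at -0.69 (adjusted p = 0.243), or either untreated array (adjusted p = 0.161 and 0.0951). In SU-DHL6 it was called at -1.09 (adjusted p = 0.0125) but not without the first untreated array, at -0.91 (adjusted p = 0.100), or the second treated one, at -1.003 (adjusted p = 0.0818). The probe set 206665_s_at was called in Daudi alone, where the treated arrays had 5.04 and 5.06 and the untreated arrays 6.95 and 6.64, 3.36-fold apart (adjusted p = 0.0166). That call was lost without any 1 of the 4 Daudi arrays, with adjusted p up to 0.117. On 9 of 11 treated and 4 of 11 untreated arrays this probe set was below the 25th percentile. Over the 6 lines it differed by -0.57 ± 0.70 (adjusted p = 0.105 in limma) and the third probe set, 215037_s_at, by -0.28 ± 0.53 (adjusted p = 0.253).

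BCL2 itself was read by 4 probe sets, of which 203684_s_at was called higher over the 6 lines. The treated arrays had 6.59 and 6.64 in Daudi, 7.77 and 7.13 in Namalwa, 7.22 and 7.80 in Raji, 7.30 and 7.38 in SU-DHL4, 6.65 and 7.46 in SU-DHL6 and 6.82 in HT. The untreated arrays had 6.40 and 6.50 in Daudi, 6.99 and 6.47 in Namalwa, 7.17 and 7.23 in Raji, 6.64 and 6.91 in SU-DHL4, 6.38 and 6.90 in SU-DHL6 and 6.61 in HT. The treated mean was the higher one in 6 of 6 lines, by small amounts that overlapped across lines. The rise of 0.40 ± 0.22, or 1.32-fold, had an adjusted p of 0.0185 in limma. It did not pass without Namalwa (adjusted p = 0.0522), without SU-DHL6 (adjusted p = 0.0542), without the second treated SU-DHL6 array (adjusted p = 0.0584) or after cyclic loess (adjusted p = 0.0707). It also did not pass with SU-DHL4 and the second treated array of SU-DHL6 left out, at 0.28 (adjusted p = 0.112). Over all its alternatives the adjusted p lay between 0.00112 and 0.159. The median of all probe sets also moved by 0.10. The leading BCL2 probe set, 207004_at, differed by -0.01 ± 0.10 (adjusted p = 0.908), with a 95% interval of -0.18 to 0.16. The probe set 207005_s_at differed by -0.03 ± 0.36 (adjusted p = 0.882).

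The fourth BCL2 probe set, 203685_at, separated the lines more than the treatments. Namalwa had 7.89 and 6.58 on the treated arrays, against 5.95 and 5.76 on the untreated arrays. This 2.60-fold rise was called (adjusted p = 0.0166) and was lost without its first treated array, at 0.72 (adjusted p = 0.196), and without either untreated array (adjusted p = 0.0629 and 0.100). Raji had 6.42 and 7.65 treated, against 7.67 and 7.64 untreated, and so began at the level that one treated Namalwa array reached. The 2 lines carrying the BCL2 translocation had 5.17 and 5.39 in treated SU-DHL4 and 5.01 and 5.06 in treated SU-DHL6, against 4.58 and 4.72 in untreated SU-DHL4 and 4.66 and 4.88 in untreated SU-DHL6. On this probe set these levels were well below those of Raji with or without treatment. Daudi and HT read as low, averaging 4.64 and 4.94 untreated and 5.15 and 5.02 treated, so the low level was not particular to the translocation lines. The other BCL2 probe sets did not show so wide a gap between the translocation lines and Raji. Untreated SU-DHL4, SU-DHL6 and Raji averaged 6.99, 6.77 and 6.92 on 207005_s_at and 7.04, 7.23 and 7.33 on 207004_at. On 203684_s_at they averaged 6.77, 6.64 and 7.20. On 7 of 11 treated and 7 of 11 untreated arrays 203685_at was below the 25th percentile, and over the 6 lines it differed by 0.37 ± 0.66 (adjusted p = 0.225 in limma). The 4 BCL2 probe sets thus gave a rise in 1 case and no call in 3.

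Counted by line, more members were called lower than higher in Daudi, Raji, SU-DHL4 and SU-DHL6, and as many in Namalwa. Daudi had 0 members higher and 5 lower, where 9.33% and 8.79% of all probe sets were called. Namalwa had 2 higher and 2 lower (9.04% and 11.7% of all), and Raji had 1 higher and 3 lower (4.75% and 8.17%). SU-DHL4 had 1 higher and 9 lower, where 34.3% of all probe sets were higher and 22.3% lower, and SU-DHL6 had 1 higher and 8 lower (14.1% and 14.2%). HT, with 1 array per treatment, had 0 higher and 0 lower in limma (1.73% and 2.17% of all), and 1 higher and 5 lower at an unadjusted p under 0.05, where 8.28% and 8.96% of all were. At that threshold Daudi had 0 higher and 7 lower (15.5% and 13.2% of all), Namalwa 3 and 4 (14.7% and 16.3%) and Raji 2 and 3 (10.1% and 14.8%). SU-DHL4 had 1 higher and 12 lower (37.7% and 23.8% of all), and SU-DHL6 1 and 9 (23.3% and 18%). The pro-death probe sets accounted for 3 of the 5 lower calls in Daudi, 2 of 2 in Namalwa, 3 of 3 in Raji, 6 of 9 in SU-DHL4 and 5 of 8 in SU-DHL6. Over the 132 pairs of line and probe set there were 5 calls higher and 27 lower, against 12.2% and 11.2% of all pairs. Of these 32 calls, 14 held without any 1 array, among them BAX on both probe sets in SU-DHL4 and SU-DHL6 and BID on both probe sets in SU-DHL4.

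Set side by side, the pro-death probe sets had the lower median difference in each of the 6 lines. In Daudi the median was -0.86 for pro-death and -0.14 for pro-survival probe sets, in Namalwa 0.06 and 0.24, and in Raji -0.45 and 0.20. In SU-DHL4 it was -1.35 for pro-death and -0.25 for pro-survival, in SU-DHL6 -1.26 and -0.43, and in HT -0.81 and -0.38. The medians of all probe sets lay between 0.01 and 0.21 in the 6 lines. With the leading probe set of each gene the order was the same in all 6 lines, but the gap was narrower in 5 of them, most so in Daudi, at -0.28 for pro-death and -0.20 for pro-survival, and wider in HT, at -1.21 and -0.22. Members of 1 gene share their transcript, and 4 of the 9 pro-death probe sets read BAX or BID, so these medians are a description without a test.

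Whether the response depended on the line was called for 5 of the 22 probe sets by the F-test, against 17.9% of all probe sets, and 11 had an unadjusted p under 0.05, against 35.8% of all. Besides BCL2A1 and PMAIP1 these were 200798_x_at (adjusted p = 0.036) and 214057_at (adjusted p = 0.0442) of MCL1 and 212312_at of BCL2L1 (adjusted p = 0.0434). Of the 26 alternatives, the PMAIP1 probe set passed in 25, BCL2L1 in 12 and the MCL1 probe sets in 11 and 8. A common sign in all 6 lines was found for 1 probe set higher, of BCL2, and 4 lower, of BAX and BID, against 22.9% and 15.8% of all probe sets.

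No member was called as different between the kinds of lymphoma, before treatment or in its response. The response differed between Burkitt and DLBCL lines for 0 of 22 probe sets in limma, against 0.0045% of all, and 6 had an unadjusted p under 0.05, against 11.9% of all. The nearest was 200798_x_at of MCL1, with a difference of 0.06 in Burkitt and -1.63 in DLBCL lines (unadjusted p = 0.0098, adjusted p = 0.417). The Burkitt lines were not alike on it, with -0.78 in Daudi, 0.34 in Namalwa and 0.63 in Raji. Also among the 6 were 200797_s_at, 200796_s_at and 214057_at of MCL1, the last with the opposite sign, BCL2A1, and 222343_at of BCL2L11. The 6 are thus not separate genes. Before treatment 0 of 22 differed, against 0.009% of all, and 3 had an unadjusted p under 0.05, against 5.15% of all. One of the 3 was BAX 211833_s_at, at 7.76 in Burkitt and 8.25 in DLBCL lines (unadjusted p = 0.0437 in limma). The others were BCL2L1 215037_s_at, at 6.73 and 6.22 (unadjusted p = 0.0462), and PMAIP1 204286_s_at, at 9.15 and 7.42 (unadjusted p = 0.0471). The leading PMAIP1 probe set, not among the 3, was 10.72 ± 0.25 in untreated Burkitt lines and 9.16 ± 1.28 in untreated DLBCL lines (SD, n = 3 lines each, adjusted p = 0.967 in limma). With 3 lines on each side these comparisons have wide error, and a missed threshold does not show that the kinds of lymphoma act alike. In the response, the kind of lymphoma also cannot be told apart from the earlier data set that gave the treated Burkitt arrays.

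Genes with a pattern most like a member were listed over the 12 means of line and treatment, as a description. For BCL2A1, the member with the largest mean rise, they were NFE2L3 (Pearson r = 0.972), IRF1 (r = 0.956) and IL1R2 (r = 0.952). For BID, with the largest mean fall in the deposited values, they were CUL1 (r = 0.962), BLK (r = 0.961) and IRAK1 (r = 0.961). The 12 means share their lines and their scaling. The mean fall of BAX was larger than that of BID under 2 other scalings, cyclic loess (-1.54 against -1.35) and quantile normalization (-1.42 against -1.34), and with SU-DHL4 and the second treated array of SU-DHL6 left out (-1.37 against -1.26).

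The rest of the apoptosis machinery was described by its leading probe sets, of which 18.4% of all genes were called higher and 17.9% lower. Of 17 other BCL2 family genes 14 were measured, with 1 higher, 3 lower and 10 not passed, and a median difference of -0.08, where that of all genes was 0.12. BCL2L14, a BCL2-related protein, rose by 0.76 ± 0.33 (adjusted p = 0.00443 in limma). BCLAF1, a nuclear protein first found by its binding to BCL2 relatives, fell by 1.62 ± 0.46 (adjusted p = 0.000752). BAG1, a co-chaperone that binds BCL2, fell by 1.15 ± 0.70 (adjusted p = 0.0107), and BCL2L13, a mitochondrial family member, fell by 0.46 ± 0.21 (adjusted p = 0.00939).

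Downstream of the pores, 16 of 19 genes of the mitochondrial pathway and its caspases were measured, with 1 higher, 6 lower and 9 not passed and a median of -0.05. CASP9, the caspase started by cytochrome c, rose by 0.56 ± 0.22 (adjusted p = 0.00508 in limma). VDAC1, the main channel of the outer membrane, fell by 2.05 ± 0.62 (adjusted p = 0.000815), and MTCH2, a receptor for truncated BID on mitochondria, fell by 1.14 ± 0.38 (adjusted p = 0.00148). PARP1, a nuclear repair enzyme cleaved by caspases, fell by 0.93 ± 0.58 (adjusted p = 0.0127), though HT stood at 0.17. Of 7 IAP genes, which encode inhibitors of caspases or their relatives, 5 were measured, with 1 higher, 1 lower and 3 not passed. BIRC2 rose by 0.47 ± 0.37 (adjusted p = 0.0370) and BIRC5, the mitotic member survivin, fell by 0.86 ± 0.66 (adjusted p = 0.0250).

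Upstream of BID, 12 of 14 death receptor genes were measured, with 1 higher, 1 lower and 10 not passed and a median of 0.28. FADD, the adaptor that recruits caspase-8, fell by 0.70 ± 0.17 (adjusted p = 0.0015 in limma), and TRADD, the adaptor of the TNF receptor, rose by 0.46 ± 0.25 (adjusted p = 0.0141). TNFSF10, the ligand TRAIL, is named here after its values were seen, and it did not pass at 1.57 ± 2.27 (adjusted p = 0.140), with differences of 4.76 in Namalwa and 4.17 in Raji and between -0.44 and 0.50 in the other lines. Of 23 known regulators of the members 21 were measured, with 5 higher, 7 lower and 9 not passed and a median of 0.07. MYC, whose product can raise BAX and BCL2L11 transcripts, fell by 3.25 ± 0.94 (adjusted p = 0.000694). BCL6, the germinal centre repressor, fell by 1.47 ± 0.87 (adjusted p = 0.00916) and STAT5B, an activator of BCL2L1, by 1.14 ± 0.69 (adjusted p = 0.0105). STAT3, an activator of MCL1 and BCL2L1, rose by 1.91 ± 0.70 (adjusted p = 0.00159). FOXO3, an activator of BCL2L11 and BBC3, rose by 1.19 ± 0.17 (adjusted p = 0.000334), and DDIT3, a stress factor, rose by 0.87 ± 0.30 (adjusted p = 0.00206). These regulators moved in both directions, and MYC moved furthest of those named. Whether any of them has a part in the change of a member was not tested.

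**Figure D4:**
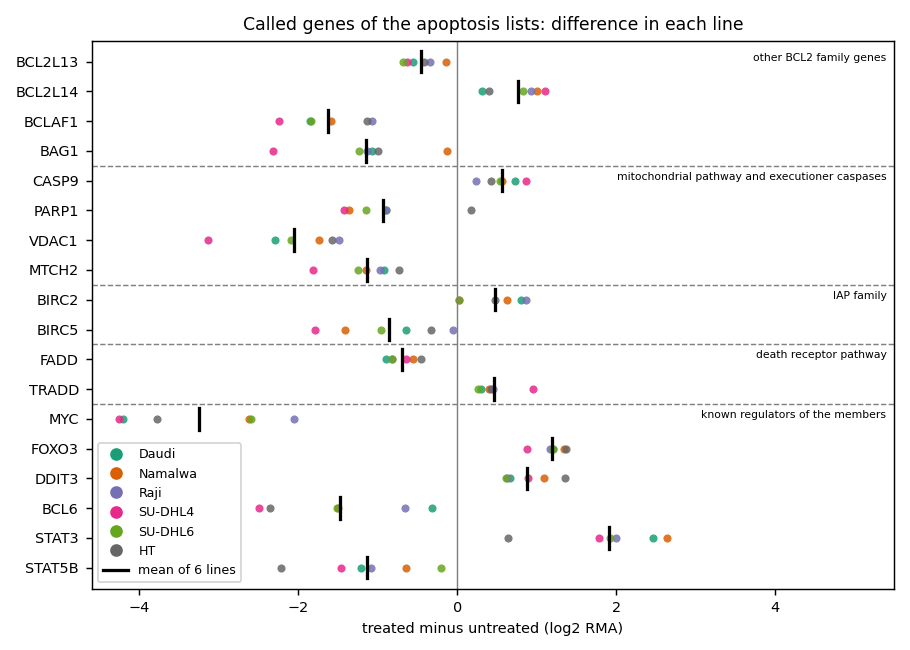
Difference between treated and untreated cells (log2 RMA, horizontal axis) of the called genes of the 5 apoptosis lists that are named in the text, with 1 point per line and a black bar at the mean of the 6 lines. MYC has the lowest mean, at -3.25, and STAT3 the highest, at 1.91; PARP1 is the 1 gene with a line, HT, on the other side of 0.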

How the data were processed

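RNA of 6 lymphoma lines was hybridised to 22 HG-U133A arrays. The authors deposited log2 expression values made with RMA, which corrects background, quantile-normalizes probes and summarises them per probe set, and the submitters' processing notes name R 2.10.1 and RMA. The authors also deposited a table of log2 differences, p-values and adjusted p-values. Its differences equalled treated minus untreated array means within 3.55e-14, although its heading reads "Normal B-cell vs AZA/TSA treated B-cells". No normal B cells are among the 22 arrays. The authors' deposited table has 3 member probe sets higher and 8 lower at an adjusted p under 0.05. Its p-values were reproduced within 5.08e-13 by a limma fit that took each of the 22 arrays as a separate observation, allowing for line. Duplicate arrays thus count as replicates there, whereas the main fit over lines used 12 means. The counts from these fits rest on different units, and the share of all probe sets called in the deposited table is not given here. A genome build is not given in the sources used here.

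From the deposited log2 values, limma 3.58.1 in R 4.3.3 (lmFit, eBayes, two-sided, Benjamini-Hochberg over 22215 probe sets, 68 controls left out, threshold 0.05) tested 4 questions. The response over lines used 12 means, 1 per line and treatment, and a block for the line. The response in each line used 22 arrays with 12 group means, HT being assumed to vary like the other lines. Burkitt and DLBCL lines were compared on 6 differences and on 6 untreated means. An F-test of the response between lines on the 22 arrays was added after the data had been seen. Of the probe sets 19065 carried 1 gene symbol, 1043 several and 2107 none. The leading probe set of a gene is the one with the highest mean over all arrays. Genes of the other lists were named as up to 3 called genes per direction with the largest mean difference, and TNFSF10 was added after its values had been seen. Sequences are from RefSeq promoters of GRCh38.p14. The tests were tested on simulated data.

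The members and lists were chosen with earlier results of these data known. The labels do not tell whether the duplicates are separate cultures, so a p-value within a line covers the spread of its arrays alone, which may be technical. Arrays have no read depth, and their number limits the precision. No array was identical to another, and same-numbered treated and untreated arrays did not deviate together (r between -0.14 and 0.03), so replicate numbers were not taken as pairs. The alternatives were other scalings, a filter on dim probe sets, 1 probe set per gene, other fits, an exact sign-flip permutation test, and leaving out arrays and lines.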

Additional observations from a re-analysis of the deposited data

Results flagged for a closer look

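One value stood far from the others. The BCL2L1 probe set 206665_s_at averaged 5.05 on the 2 treated Daudi arrays and 6.80 on the 2 untreated Daudi arrays. The other 5 untreated lines averaged 5.39 to 5.62, below untreated Daudi. Duplicates differed, since the untreated Daudi arrays had 6.95 and 6.64, those of Raji 6.56 and 4.66 and those of SU-DHL6 5.94 and 4.84, so single untreated Raji and SU-DHL6 arrays came closer to Daudi than their means. The gap exceeded Dixon's 95% limit for 6 values. Of the 66 sets of 6 lines examined (treated, untreated and difference for each of the 22 probe sets) this was the 1 that did, and chance marks about 1 set in 20.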

How the results depend on the processing

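Of the calls over the 6 lines, both BAX probe sets and BID 211725_s_at passed in every alternative run. The count of members higher, 1 as reported, was 0 after cyclic loess, with 1 probe set per gene, on Burkitt or DLBCL lines alone, and with SU-DHL4 and the second treated array of SU-DHL6 left out, and it was 3 on the 22 arrays with line as a term. The count lower, 4 as reported, was 8 in that last fit, and 3 of the 9 genes were lower with 1 probe set per gene. Leaving out 1 array or line gave 0 to 1 higher, with 0 without Namalwa, SU-DHL6 or the second treated SU-DHL6 array, and 4 to 7 lower, with 7 without the second untreated Raji array. With the replicate number as a block (replicate block), the 22 arrays gave 2 higher and 7 lower, the calls in each line numbered 7 higher and 24 lower, and the F-test between lines called 3 members in place of 5, PMAIP1 204285_s_at not among them (adjusted p = 0.100). Leaving out 1 array gave 2 to 7 members in the F-test. The calls in each line lay between 4 and 7 higher and 22 and 34 lower over 26 alternatives, and comparisons of Burkitt with DLBCL lines gave 0 calls in all alternatives. The exact sign-flip permutation test over 6 lines gave 1 higher and 4 lower, each at 0.03125, the smallest p it can give. It passes only where all 6 lines share a sign, so it repeats that count. Such a common sign was found for 22.9% (higher) and 15.8% (lower) of all probe sets.

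Signs turned for members that were not called. PMAIP1 204285_s_at was -0.075 with centred arrays, -0.11 on the 22 arrays with line as a term and with the replicate block, -0.44 on DLBCL lines and -0.28 to 0.40 with 1 array or line left out. MCL1 200797_s_at was 0.061 after quantile normalization, 0.11 after cyclic loess and 0.024 on Burkitt lines. MCL1 214056_at was -0.023 after cyclic loess, and MCL1 200798_x_at 0.065 and BCL2L11 222343_at 0.30 on Burkitt lines. BCL2 207005_s_at was 0.011 on the 22 arrays with either term and 0.14 on Burkitt lines, and BCL2A1 -0.18 on DLBCL lines. With 1 array or line left out, BCL2 207004_at lay between -0.073 and 0.050, BCL2 207005_s_at between -0.094 and 0.057, and BCL2L11 222343_at between -0.29 and 0.065, the last without HT. The cause of these turns was not tested. The limits are the number of arrays, 2 or 1 per group, and signal: 3 of the 22 members fell among the 5554 dimmest probe sets.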
